A study of Mus musculus with 24 samples.

Results

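The Wnt ligands (Wnt2, Wnt4, Wnt5a, Wnt10b), the secreted Wnt inhibitors (Sfrp1, Sfrp2, Frzb, Dkk2, Dkk3) and Axin2 were followed by name in mRNA sequencing of mouse pulmonary fibroblasts, 10 genes of 55291 gene names in the count files. All 10 passed the filter on low counts, which kept 16258 of 34285 detected genes. Fibroblasts of WT C57BL/6 mice and of mice labelled TLR4-/-, aged 4 to 8 weeks, were isolated from pools of 3 to 4 lungs, cultured to passages 3 to 6 and moved to Opti-MEM overnight. They then received PBS, recombinant mouse CIRP (rmCIRP) at 1 μg/ml, recombinant TGF-β1 of the mouse (rmTGF-β1) at 2 ng/ml, or both proteins, for 24 h. Each of the 8 conditions had 3 libraries, 24 in all. CIRP is a cold-inducible RNA-binding protein that acts as a danger signal when released from cells, TLR4 is the receptor that also senses lipopolysaccharide, and TGF-β1 is the main profibrotic growth factor of the lung. Because the cells of a genotype came from pooled lungs and nothing says that the 3 libraries of a condition were separate isolations, p-values measure the spread between these libraries only, which may be technical.

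Wnt proteins are lipid-modified secreted ligands that bind Frizzled receptors. In canonical signaling, together with the coreceptors LRP5 and LRP6, they spare β-catenin from degradation, and β-catenin with TCF/LEF factors then drives target genes such as Axin2, itself part of the destruction complex and a feedback inhibitor. Wnt5a mostly acts through noncanonical receptors such as ROR1 and ROR2, while Wnt2 is a mesenchymal ligand needed for lung development. The secreted Frizzled-related proteins (Sfrp1, Sfrp2 and Frzb, also known as Sfrp3) bind Wnt proteins outside the cell, Dkk2 binds LRP5 and LRP6, and Dkk3 is a divergent Dickkopf protein whose role in Wnt signaling is less settled. Lung fibroblasts are a main source of these ligands and inhibitors, and Wnt signaling is active in fibrotic lung.

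Libraries held 29853346 to 39664606 reads counted on genes. Levels below are normalized counts, that is, counts divided by DESeq2 size factors, given as mean ± SD with n = 3. Differences are log2 fold changes of an edgeR quasi-likelihood fit to all 24 libraries, with their standard error (SE), and a gene was called when its Benjamini-Hochberg adjusted p over the 16258 genes tested was under 0.1. The libraries labelled TLR4-/- keep that wording because Tlr4 mRNA was at least as high there as in WT, with 903 ± 20.2 normalized counts against 759 ± 41.9 with PBS. The count does not separate an intact transcript from one without the deleted part. Fibroblast markers were present in both genotypes, all 11 of 11 above 10 normalized counts in every condition. The 13 macrophage markers were also present, and summed to between 78664 and 95907 in WT libraries and between 307717 and 391673 in libraries labelled TLR4-/-. Epithelial and lymphocyte markers were at or near 0 with PBS, Epcam at a mean of 5.08 or less, except for Cdh1 (26.3 in WT libraries and 82.1 in libraries labelled TLR4-/-). In the genotype labelled TLR4-/-, library 3 with both agents stood apart from its replicates (chi-square per degree of freedom 32.9 and 47.8, against a median of 4.88 over 24 replicate pairs), as did library 3 with rmTGF-β1 (12.5 and 16.3).

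With the counts divided by exon length (CPM per kb of merged exons), Sfrp1, Dkk3, Frzb and Dkk2 were the most abundant of the 10 mRNAs in WT fibroblasts with PBS. Sfrp1 led with 95.8 ± 14.7 CPM per kb, the highest level of the 87 Wnt pathway genes listed, followed by Dkk3 with 44.2 ± 2.44, Frzb with 22.8 ± 1.77 and Dkk2 with 19.2 ± 0.326. Among the ligands, Wnt5a stood at 9.27 ± 0.582 CPM per kb, Wnt2 at 3.20 ± 0.391, Wnt4 at 0.522 ± 0.109 and Wnt10b at 0.170 ± 0.021. Sfrp2 was the least abundant inhibitor at 1.54 ± 0.650 CPM per kb. The canonical target Axin2 was close to the limit of counting with 0.049 ± 0.014 CPM per kb, and its raw counts were 2 to 14 reads in all 24 libraries.

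**Figure D1:**
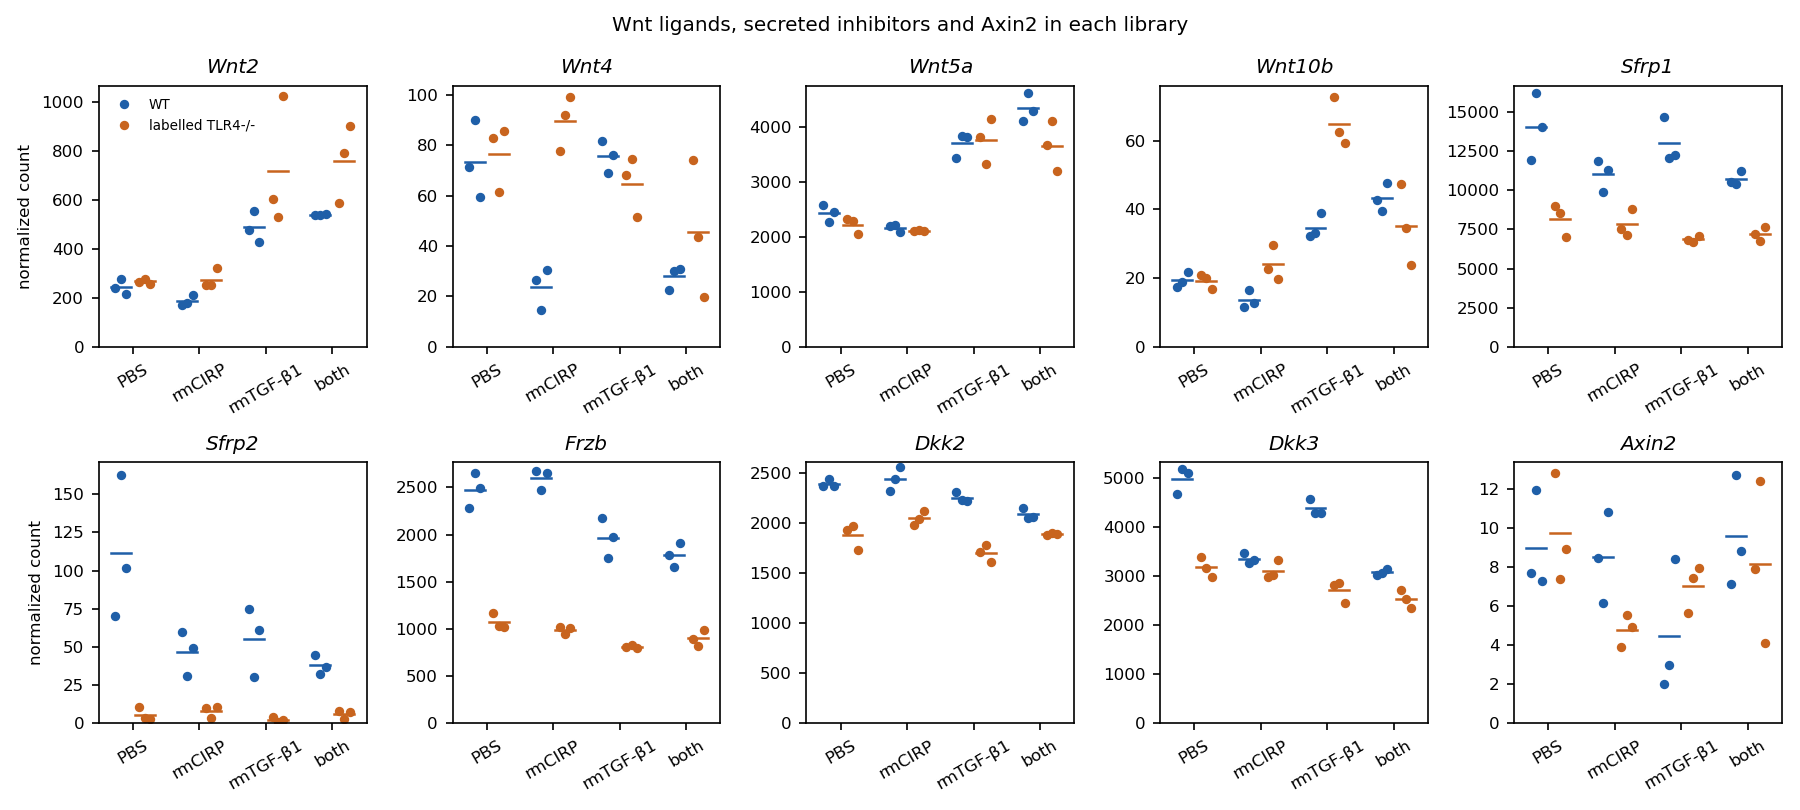
Normalized counts (vertical axes, linear and from 0) of the 10 genes by treatment, with 1 point per library and a bar at the mean of 3 libraries, WT in blue and libraries labelled TLR4-/- in orange. Wnt2, Wnt5a and Wnt10b stood higher with rmTGF-β1 in both genotypes, Wnt4 and Dkk3 were lower with rmCIRP in WT libraries, and Sfrp2 was at 10.9 or less in every library labelled TLR4-/-.

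The first question was what rmCIRP does to these genes in WT fibroblasts. None of the 10 rose and 5 fell, namely the ligands Wnt4 and Wnt5a and the inhibitors Sfrp1, Sfrp2 and Dkk3, beside 43.9% of all genes called in this comparison. The median log2 fold change was −0.37 over the 10 genes and −0.02 over all genes tested. In the same comparison 6 of the 13 macrophage markers were called higher and 7 lower, and 2 of the 11 fibroblast markers higher and 6 lower. Of the 7 smooth muscle and pericyte markers 5 were lower and 0 higher (median −0.42), and their sum lay between 379135 and 407877 normalized counts with PBS and between 302565 and 336367 with rmCIRP. The part of cell types in the changes of the 10 genes was not tested here. In bulk RNA, fewer cells of a type and less RNA per cell cannot be told apart.

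Wnt4, a ligand of kidney and gonad development that uses both Wnt branches, moved most. Its 3 PBS libraries held 71.2, 89.9 and 59.3 normalized counts and its 3 rmCIRP libraries 26.5, 14.4 and 30.6. The groups did not overlap, and Wnt4 fell by 1.62 on the log2 scale (SE 0.32, adjusted p = 0.0003). Wnt5a held 2583, 2273 and 2449 with PBS and 2187, 2206 and 2079 with rmCIRP, a log2 change of −0.18 (SE 0.08, adjusted p = 0.088). That small difference lost its call in 5 of 6 fits that left out 1 library (all but the fit without PBS library 2), with −0.12 and an adjusted p of 0.34 without PBS library 1. Wnt2 (log2 fold change −0.38, SE 0.22, adjusted p = 0.18) and Wnt10b (−0.50, SE 0.27, adjusted p = 0.17) did not pass the threshold. The rmCIRP libraries of each lay below its PBS libraries, but genes without overlap were not counted over all genes in this comparison. Wnt2 was called with only the 6 compared libraries fitted (−0.36, adjusted p = 0.022).

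Among the inhibitors, Dkk3 had the lowest adjusted p. Its libraries held 4682, 5178 and 5099 normalized counts with PBS and 3470, 3278 and 3321 with rmCIRP. Every rmCIRP library was below every PBS library, and Dkk3 fell by 0.58 (SE 0.06, adjusted p = 8.9e-08). Sfrp2 held 70.3, 163 and 102 with PBS and 59.4, 30.9 and 49.4 with rmCIRP. These libraries spread widely within each group without overlapping, a trait not counted over all genes, and Sfrp2 fell by 1.27 (SE 0.31, adjusted p = 0.0027). Sfrp1 held 11921, 16209 and 14071 with PBS and 11901, 9881 and 11281 with rmCIRP, a log2 change of −0.36 (SE 0.10, adjusted p = 0.0084). The lowest PBS library and the highest rmCIRP library of Sfrp1 were nearly equal, and without PBS library 2 the change was −0.23 (adjusted p = 0.090). Frzb, Dkk2 and Axin2 were not called, and their log2 fold changes lay between −0.08 and 0.07.

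The next comparison was rmTGF-β1 against PBS in WT fibroblasts, the profibrotic stimulus alone. For 3 ligands the level rose and 3 inhibitors fell, which made 6 of the 10 genes, beside 12.4% of all genes called. The 10 genes were chosen with earlier results of these data known. Such shares, here and in the other comparisons, are therefore no test of the 10 genes as a set. The median of the 10 was −0.10 on the log2 scale, against −0.02 over all genes. Of the 11 fibroblast markers 1 was higher and 3 lower (median −0.03). Of the 13 macrophage markers 0 were higher and 2 lower, and of the 7 smooth muscle and pericyte markers 1 higher and 1 lower. Their part in the result was not tested.

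Wnt2 had the largest rise of the 4 ligands. It held 238, 275 and 215 normalized counts with PBS and 476, 555 and 429 with rmTGF-β1, a rise of 1.00 on the log2 scale (SE 0.20, adjusted p = 0.0023). Wnt5a reached 3432, 3832 and 3821 with rmTGF-β1, above all of its PBS libraries, and rose by 0.60 (SE 0.08, adjusted p = 4.2e-05). Wnt10b, a canonical ligand known from fat and bone, held 17.3, 18.97 and 21.9 with PBS and 32.3, 33.0 and 38.9 with rmTGF-β1, a rise of 0.84 (SE 0.22, adjusted p = 0.021). No library of these 3 ligands overlapped between the groups, though genes without overlap were not counted over all genes. Wnt4, by contrast, held 81.7, 69.0 and 76.1 with rmTGF-β1, within the range of its PBS libraries.

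Frzb held 2276, 2655 and 2489 normalized counts with PBS and 2179, 1751 and 1974 with rmTGF-β1, and fell by 0.33 on the log2 scale (SE 0.07, adjusted p = 0.0061). Dkk3 fell by 0.19 (SE 0.06, adjusted p = 0.049) and lost that call without PBS library 2 (−0.15), PBS library 3 (−0.18), rmTGF-β1 library 2 (−0.18) or rmTGF-β1 library 3 (−0.18). Sfrp2 held 74.6, 29.997 and 60.9 with rmTGF-β1, which overlapped its PBS libraries, and fell by 1.01 (SE 0.30, adjusted p = 0.037). The Sfrp2 call rested on 2 libraries, since the change was −0.63 without PBS library 2 (adjusted p = 0.27) and −0.73 without rmTGF-β1 library 2 (adjusted p = 0.20). Axin2, the canonical target, held 7.70, 11.98 and 7.29 with PBS and 2.02, 3.00 and 8.45 with rmTGF-β1. Its value of −0.92 on the log2 scale (SE 0.45, adjusted p = 0.24) did not pass the threshold, and without rmTGF-β1 library 3 it was −1.80 (adjusted p = 0.051).

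The promoter sequences of 2 genes that rose together and 2 that fell together are shown so that their letters can be compared, and they come from RefSeq (build GRCm38.p6). Of the 10 genes, 7 matched the promoter table by symbol, with 300 bases each, 250 of them before the start. The 250 bases before the start are given 5′ to 3′ on the gene's strand for Wnt2 (chr6:18030446-18030695, minus strand) and Wnt10b (chr15:98778151-98778400, minus strand), which rose with rmTGF-β1, and for Wnt4 (chr4:137277385-137277634, plus strand) and Sfrp2 (chr3:83766071-83766320, plus strand), which fell with rmCIRP. Capitals mark matches to 3 motifs searched on both strands, the TCF/LEF motif (CTTTGAA or CTTTGAT), the SMAD motif (CAGACA) and the NF-kB motif.
Wnt2: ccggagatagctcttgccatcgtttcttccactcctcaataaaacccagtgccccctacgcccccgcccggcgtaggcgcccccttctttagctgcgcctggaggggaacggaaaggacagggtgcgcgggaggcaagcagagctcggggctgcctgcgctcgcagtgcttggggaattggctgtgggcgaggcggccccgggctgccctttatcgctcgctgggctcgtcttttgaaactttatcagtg
Wnt10b: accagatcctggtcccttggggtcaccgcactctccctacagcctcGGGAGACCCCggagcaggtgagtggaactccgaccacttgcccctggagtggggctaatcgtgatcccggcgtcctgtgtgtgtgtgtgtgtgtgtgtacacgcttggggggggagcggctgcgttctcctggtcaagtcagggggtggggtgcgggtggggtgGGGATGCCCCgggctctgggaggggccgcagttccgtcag
Wnt4: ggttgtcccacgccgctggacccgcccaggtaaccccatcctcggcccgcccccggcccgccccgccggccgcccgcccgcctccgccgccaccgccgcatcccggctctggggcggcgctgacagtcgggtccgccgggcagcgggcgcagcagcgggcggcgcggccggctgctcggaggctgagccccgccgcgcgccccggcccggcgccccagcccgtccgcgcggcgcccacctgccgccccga
Sfrp2: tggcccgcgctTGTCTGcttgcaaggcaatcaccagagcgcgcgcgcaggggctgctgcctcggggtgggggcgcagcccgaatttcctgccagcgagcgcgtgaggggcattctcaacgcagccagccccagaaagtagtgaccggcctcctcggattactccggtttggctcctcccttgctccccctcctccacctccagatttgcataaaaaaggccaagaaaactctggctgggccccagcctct
The Sfrp2 promoter held 1 match to the SMAD motif on the opposite strand, starting 239 bases before the start. The Wnt10b promoter held 2 matches to the NF-kB motif, starting 204 and 40 bases before the start. No TCF/LEF match lay in the 7 windows, Axin2's included. Over the 32851 promoters of the table, 8.65% held the TCF/LEF motif, 21% the SMAD motif and 4.51% the NF-kB motif, beside 0, 1 and 1 of the 7 genes here. A match is only a description of these letters. These windows were rich in G and C, with 57.7% in Dkk2 at the lowest and 84.3% in Wnt4 at the highest, against a median of 52.7% over all promoters.

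When rmCIRP was added to rmTGF-β1 in WT fibroblasts, 2 of the 10 genes were called higher and 4 lower against rmTGF-β1 alone, beside 42.2% of all genes. In this comparison 5 of the 7 smooth muscle and pericyte markers were lower and 0 higher (median −0.33), 1 of the 11 fibroblast markers was higher and 6 lower, and 6 of the 13 macrophage markers were higher and 4 lower, and their part in the result was not tested. Wnt4 held 22.4, 30.2 and 31.0 normalized counts with both agents, all far below its rmTGF-β1 libraries, and fell by 1.45 (SE 0.31, adjusted p = 0.0009). Dkk3 held 3020, 3064 and 3155 with both agents, against 4569, 4293 and 4290 with rmTGF-β1, and fell by 0.51 (SE 0.06, adjusted p = 6.1e-07). Sfrp1 fell by 0.28 (SE 0.10, adjusted p = 0.034) and Dkk2 by 0.11 (SE 0.05, adjusted p = 0.060). The Sfrp1 call was lost without rmTGF-β1 library 1 (−0.19, adjusted p = 0.19). The Dkk2 call was lost without that library (−0.10) or without library 2 (−0.10) or 3 (−0.11) of those with both agents.

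Wnt5a went the other way from its response to rmCIRP alone. It held 4106, 4611 and 4285 normalized counts with both agents, above its 3 rmTGF-β1 libraries, a rise of 0.22 (SE 0.08, adjusted p = 0.030). That call was lost without rmTGF-β1 library 1 (adjusted p = 0.15) or without library 2 of the libraries with both agents (adjusted p = 0.14). Axin2 held 7.14, 12.8 and 8.87 and was called higher by 0.99 (SE 0.45, adjusted p = 0.098), but its groups overlapped. The call was lost without rmTGF-β1 library 1 (0.66) or 2 (0.76) and without library 2 (0.74) or 3 (1.03) of those with both agents, and DESeq2 did not make it (adjusted p = 0.19). Without rmTGF-β1 library 3 the value was 1.86.

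Seen from the other side, rmTGF-β1 added to rmCIRP raised Wnt2 by 1.52 (SE 0.20, adjusted p = 1.6e-05), Wnt5a by 1.00 (SE 0.08, adjusted p = 1.6e-08) and Wnt10b by 1.65 (SE 0.24, adjusted p = 3.7e-05) in WT fibroblasts. Frzb fell by 0.55 (SE 0.07, adjusted p = 2.0e-05) and Dkk2 by 0.23 (SE 0.05, adjusted p = 0.0012), so that 5 of the 10 genes were called beside 20.5% of all genes. With both agents Wnt2 held 536, 537 and 541 normalized counts, and Wnt10b 42.8, 39.5 and 47.7.

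Whether the effect of rmCIRP differed with and without rmTGF-β1 was tested as an interaction. None of the 10 genes was called in that edgeR test, with 0.0492% of all genes called, and DESeq2 called none of the 10 either. At an unadjusted p under 0.05 the test held 3 of them, Wnt5a, Wnt10b and Dkk2. The interaction was 0.40 for Wnt5a (SE 0.11, adjusted p = 0.41) and 0.81 for Wnt10b (SE 0.34, adjusted p = 0.81). The opposite signs of Wnt5a after rmCIRP alone and on top of rmTGF-β1 were therefore not shown to differ in the fit to all 24 libraries. With only the 12 WT libraries fitted, the Wnt5a interaction was 0.39 and passed the threshold (adjusted p = 0.021).

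In the libraries labelled TLR4-/-, the same comparison of rmCIRP with PBS called none of the 10 genes and 0% of all genes. At an unadjusted p under 0.05 the edgeR test held 1136 of all genes and 2 of the 10, Dkk2 and Axin2, and DESeq2 called 33 of all genes and none of the 10. Wnt4 held 83.0, 61.5 and 85.6 normalized counts with PBS and 77.7, 91.9 and 99.3 with rmCIRP, a log2 difference of 0.23 (SE 0.25, 95% interval −0.27 to 0.72). Dkk3 held 3400, 3175 and 2985 with PBS and 2985, 3017 and 3322 with rmCIRP (−0.03, SE 0.06, 95% interval −0.15 to 0.09). The groups of both genes overlapped. Sfrp2 could not be measured well here, since its raw counts were 3 to 11 reads in these 6 libraries (0.48, SE 0.75). Dkk2 had the lowest adjusted p of the 10 (0.13, SE 0.05, adjusted p = 0.51), and Axin2 the largest value (−0.998, SE 0.44, adjusted p = 0.67) on counts of 4 to 13 reads.

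The response to rmTGF-β1 in the libraries labelled TLR4-/- again had 3 ligands higher and 3 inhibitors lower, beside 23.9% of all genes called. Of the 11 fibroblast markers 1 was higher and 5 lower (median −0.16). Of the 13 macrophage markers 1 was higher and 2 lower, and of the 7 smooth muscle and pericyte markers 1 higher and 2 lower. The part of these markers in the response was not tested. Wnt10b held 20.7, 20.1 and 16.9 normalized counts with PBS and 72.9, 62.7 and 59.4 with rmTGF-β1, a rise of 1.75 (SE 0.20, adjusted p = 2.8e-06). Wnt2 held 266, 278 and 256 with PBS and 602, 529 and 1021 with rmTGF-β1, a rise of 1.44 (SE 0.19, adjusted p = 1.2e-05). Library 3 stood high for Wnt2, and without it the rise was 1.10. Wnt5a held 2323, 2292 and 2047 with PBS and 3815, 3316 and 4146 with rmTGF-β1, and rose by 0.77 (SE 0.08, adjusted p = 9.0e-07). All 3 ligands were without overlap between the groups, a trait not counted over all genes.

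Of the inhibitors, Frzb held 1165, 1034 and 1020 normalized counts with PBS and 804, 827 and 795 with rmTGF-β1, and fell by 0.40 (SE 0.08, adjusted p = 0.0013). Dkk3 fell by 0.23 (SE 0.06, adjusted p = 0.011). Dkk2 fell by 0.14 (SE 0.05, adjusted p = 0.044), with overlapping libraries, and lost the call without PBS library 1 (−0.12), PBS library 2 (−0.10) or rmTGF-β1 library 3 (−0.10). Sfrp2, at raw counts of 1 to 11 reads, was not called (−1.31, SE 0.99, adjusted p = 0.41), and its interval from −3.24 to 0.63 holds the change seen in WT libraries.

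**Figure D2:**
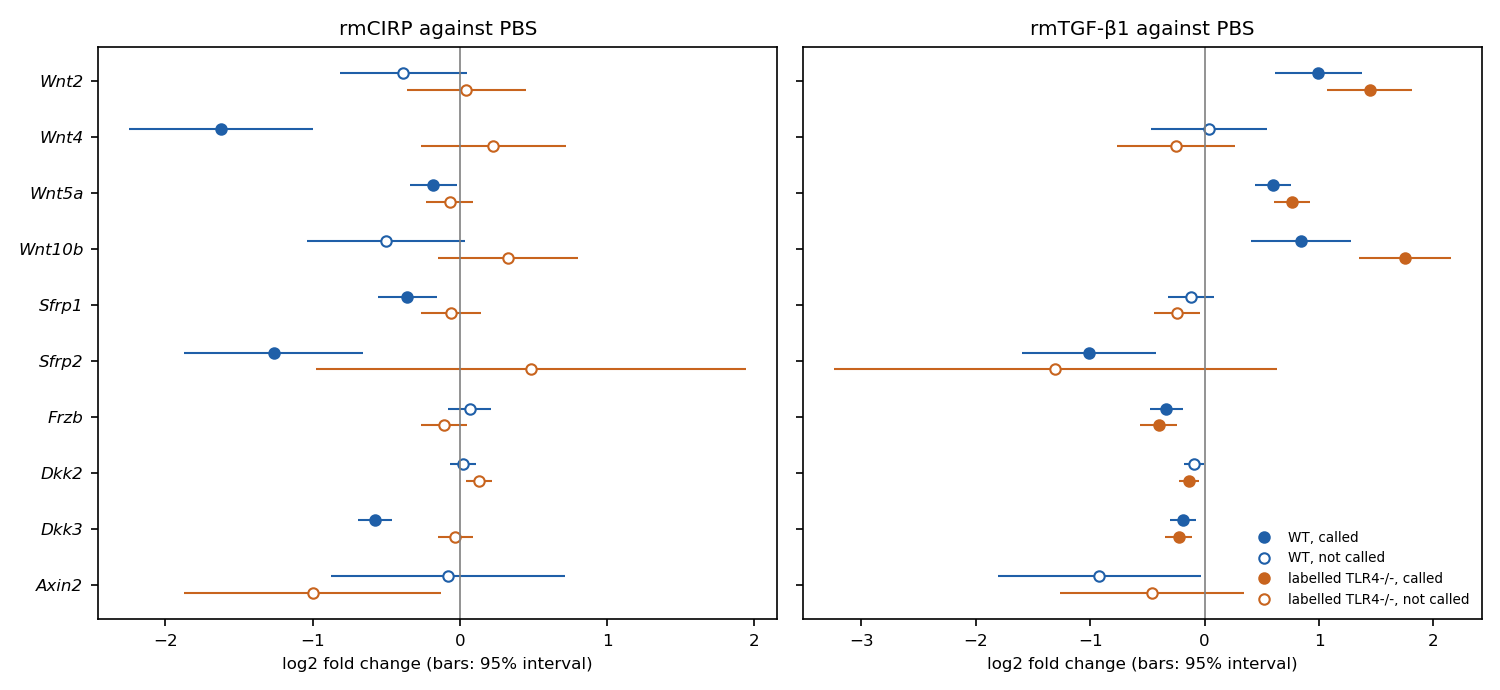
Log2 fold changes (horizontal axes) of the 10 genes for rmCIRP against PBS (left) and rmTGF-β1 against PBS (right), WT in blue and libraries labelled TLR4-/- in orange, with bars for the 95% interval (1.96 SE) and filled points for genes called at an adjusted p under 0.1. With rmCIRP, 5 WT points and no point of the other genotype are filled, and with rmTGF-β1 Wnt2, Wnt5a and Wnt10b lie right of 0 in both genotypes.

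With rmCIRP on top of rmTGF-β1, 1 of the 10 genes was called in the libraries labelled TLR4-/-, beside 2.69% of all genes. Wnt10b held 72.9, 62.7 and 59.4 normalized counts with rmTGF-β1 and 47.3, 34.7 and 23.7 with both agents, and fell by 0.88 (SE 0.18, adjusted p = 0.054). The call was lost without library 3 of the group with both agents (−0.67, adjusted p = 0.24) and without rmTGF-β1 library 1 (−0.78, adjusted p = 0.37), and with only the 6 compared libraries fitted the adjusted p was 0.68. Wnt4 ranged from 19.6 to 74.0 with both agents, lowest in library 3.

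Against rmCIRP alone, the group with both agents had 3 ligands higher, Wnt2 by 1.46 (SE 0.19), Wnt5a by 0.79 (SE 0.08) and Wnt10b by 0.55 (SE 0.21), and Wnt4, Dkk2 and Dkk3 lower, beside 32.8% of all genes called. Here 2 of the 7 smooth muscle and pericyte markers were higher and 5 lower, 3 of the 4 mesothelial markers were lower, 3 of the 5 endothelial markers were higher and 4 of the 11 fibroblast markers were lower, and their part in the result was not tested. With both agents Wnt2 held 586, 791 and 898 normalized counts, above its rmCIRP libraries at 252, 250 and 320. Wnt5a held 3671, 4097 and 3202, against 2105, 2117 and 2102 with rmCIRP. Neither gene overlapped between these groups, a trait not counted over all genes. Dkk3 fell by 0.30 (SE 0.06, adjusted p = 0.0011) and Dkk2 by 0.12 (SE 0.05, adjusted p = 0.058), the latter not called without rmCIRP library 2 (−0.11) or 3 (−0.10) or without library 1 (−0.11) or 3 (−0.12) of those with both agents. Wnt4 fell by 0.97 (SE 0.27, adjusted p = 0.011). Its fall was 0.62 without library 3 of the group with both agents and 1.47 without library 1 of that group, and it was still called in each, but not with only the 6 compared libraries fitted (adjusted p = 0.14). Wnt10b overlapped between the groups and was called in 2 of 6 fits that left out 1 library, those without rmCIRP library 2 or without library 3 with both agents. Its value was 0.29 without library 1 with both agents (adjusted p = 0.39), 0.56 without library 2 of that group, 0.51 without rmCIRP library 1 and 0.42 without rmCIRP library 3.

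Whether the genotypes responded differently was tested directly. In the response to rmCIRP, 2 of the 10 genes differed, beside 31.4% of all genes. The rmCIRP response of Wnt4 was 1.85 higher on the log2 scale in libraries labelled TLR4-/- than in WT libraries (SE 0.41, adjusted p = 0.0019), from −1.62 in WT and 0.23 in the other genotype. That of Dkk3 was 0.55 higher (SE 0.09, adjusted p = 5.3e-05), from −0.58 and −0.03. Both differences were called in all 12 fits that left out 1 library. By the same test, the response was higher for 4 of the 7 smooth muscle and pericyte markers and lower for 0 (median 0.35). It was higher for 5 and lower for 1 of the 11 fibroblast markers, and higher for 5 and lower for 6 of the 13 macrophage markers. The part of cell types in the result was not tested. The cells of each genotype came from their own pooled lungs, so genotype cannot be told apart from isolation or culture in these differences. The differences of Wnt10b (0.83, SE 0.36, adjusted p = 0.10), Sfrp2 (1.75, SE 0.82, adjusted p = 0.13) and Sfrp1 (0.30, SE 0.15, adjusted p = 0.15) did not pass the threshold. DESeq2 called Sfrp2 (1.76, adjusted p = 0.048). That value rests on raw counts of 3 to 11 reads in the libraries labelled TLR4-/-, and Sfrp2 passed the filter through the WT libraries.

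In the response to rmTGF-β1, the edgeR test called none of the 10 genes and 0.0861% of all genes as different between genotypes, and DESeq2 called none of the 10. At an unadjusted p under 0.05 it held 1 of them, Wnt10b, whose rise was 0.91 larger in libraries labelled TLR4-/- (SE 0.31, 95% interval 0.30 to 1.53, adjusted p = 0.29). For Wnt2 the interval of the difference ran from −0.09 to 0.98 and for Wnt5a from −0.05 to 0.39, so that no difference was detectable for either with 3 libraries a condition.

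Without any agent, with PBS alone, all 5 inhibitors were lower in libraries labelled TLR4-/- than in WT libraries (Dkk2 not when scaled by fibroblast markers), and no ligand was called, 5 of the 10 genes beside 47.1% of all genes. Sfrp2 differed most, with 70.3, 163 and 102 normalized counts in WT libraries and 10.9, 3.18 and 2.99 in libraries labelled TLR4-/-, a log2 difference of −4.25 (SE 0.46, adjusted p = 8.1e-08). Its raw counts in the latter were 11, 3 and 3 reads, and it passed the filter on low counts through the WT libraries. Frzb held 2276, 2655 and 2489 against 1165, 1034 and 1020, a difference of −1.21 (SE 0.08, adjusted p = 1.1e-11). Sfrp1 held 11921, 16209 and 14071 against 8984, 8580 and 7012 (−0.78, SE 0.10), Dkk3 4682, 5178 and 5099 against 3400, 3175 and 2985 (−0.65, SE 0.06), and Dkk2 2369, 2440 and 2371 against 1930, 1971 and 1734 (−0.35, SE 0.05). No library overlapped between the genotypes for any of the 5 inhibitors, but how many of all genes were without overlap was not counted. The log2 differences of the 4 ligands lay between −0.14 and 0.13. Because the cells of each genotype came from their own pooled lungs, genotype cannot be told apart from isolation or culture in these differences.

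Markers of cell types also differed between the genotypes. In the PBS libraries the 11 fibroblast markers summed to between 124892 and 137995 normalized counts in WT. Their sum lay between 89973 and 102405 in libraries labelled TLR4-/-. Of these 11, 8 were called lower and 2 higher (median log2 fold change −0.74). Of the 13 macrophage markers, 12 were called higher and 1 lower (median 1.89), with Lyz2 at a mean of 281642 against 78175. The endothelial list had 4 of 5 lower and 0 higher (median −1.48), and the smooth muscle and pericyte list 5 of 7 lower and 1 higher (median −0.36). With libraries scaled by the fibroblast markers in place of all genes, the median of all genes moved from −0.02 to 0.48, and Sfrp2 (−3.75), Frzb (−0.71), Sfrp1 (−0.28) and Dkk3 (−0.15) were still called lower. Dkk2 turned to 0.14 (adjusted p = 0.073), called higher, and Wnt2 (0.63), Wnt4 (0.56) and Wnt5a (0.35) were then called higher too. The part of the culture makeup in the ligand and inhibitor differences was not tested beyond this scaling.

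**Figure D3:**
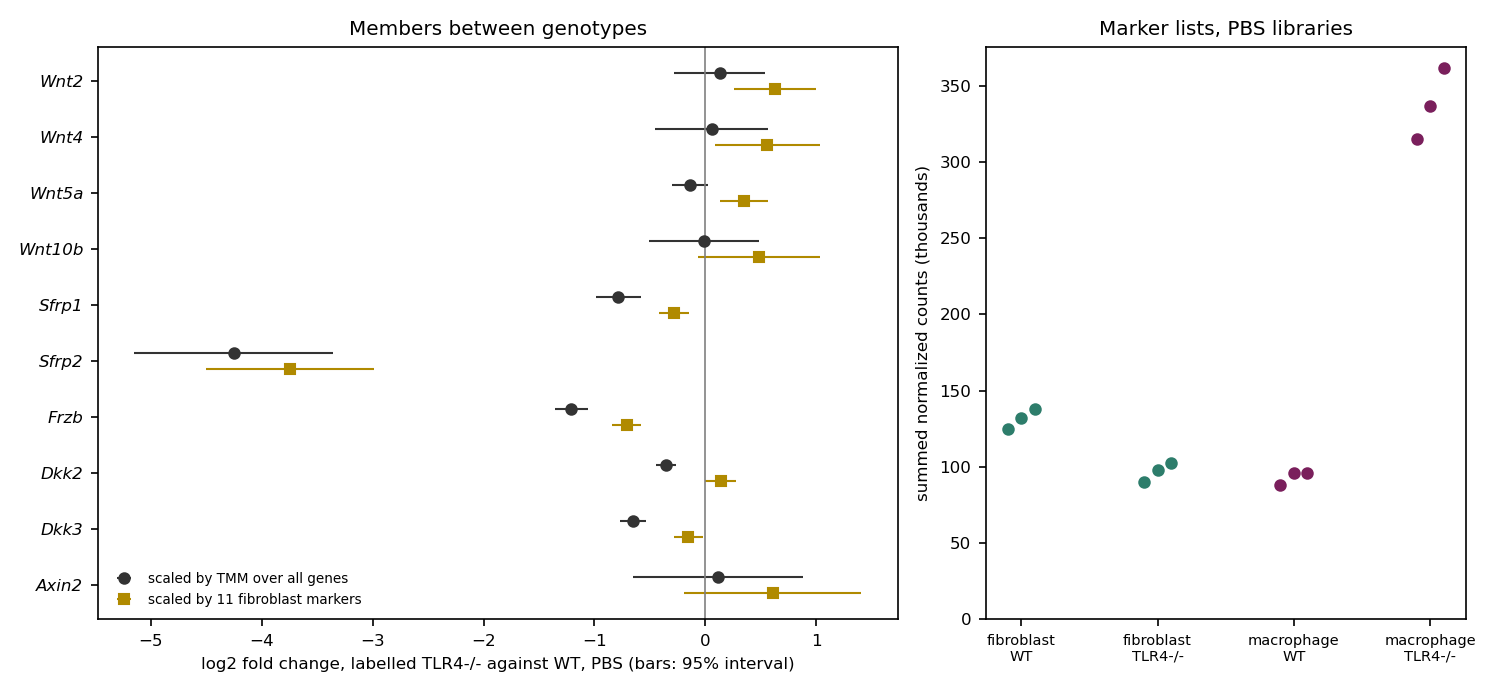
Left, log2 fold changes of the 10 genes in libraries labelled TLR4-/- against WT libraries with PBS, scaled over all genes (dark circles) or by the 11 fibroblast markers (yellow squares), with bars for the 95% interval (1.96 SE). Right, summed normalized counts (axis units of 1000) of the fibroblast and macrophage marker lists in the 3 PBS libraries of each genotype, drawn from lowest to highest. Sfrp2, Frzb, Sfrp1 and Dkk3 lie left of 0 under both scalings, while Dkk2 changes side.

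Over the 8 conditions, Wnt4 stood lowest in the 2 WT conditions with rmCIRP, with means of 23.9 ± 8.43 and 27.9 ± 4.74 normalized counts. These did not differ from each other beyond their spread. Its highest mean was in libraries labelled TLR4-/- with rmCIRP (89.6 ± 10.99), which did not differ beyond the spread from that with PBS (76.7 ± 13.3). Wnt5a stood highest in WT libraries with both agents (4334 ± 256), and its 4 conditions without rmTGF-β1 lay between 2108 ± 7.94 and 2435 ± 155. Frzb was lowest in libraries labelled TLR4-/- with rmTGF-β1 (809 ± 16.5) and highest in WT libraries with rmCIRP (2599 ± 110), next to WT with PBS (2473 ± 190), from which it did not differ beyond the spread. Sfrp1 ordered by genotype, with its 4 condition means between 10718 ± 434 and 14067 ± 2144 in WT libraries and between 6899 ± 195 and 8192 ± 1042 in libraries labelled TLR4-/-. The same held for Dkk2, from 2089 ± 54.2 to 2440 ± 117 and from 1701 ± 87.9 to 2049 ± 69.8, where the lowest WT mean and the highest mean of the other genotype lay within their spread. Wnt10b was highest in libraries labelled TLR4-/- with rmTGF-β1 (65.0 ± 7.05) and lowest in WT libraries with rmCIRP (13.7 ± 2.50). Wnt2 was highest in libraries labelled TLR4-/- with both agents (758 ± 159) and with rmTGF-β1 (717 ± 265), means that did not differ beyond their spread. Axin2 had means from 4.49 ± 3.47 to 9.74 ± 2.80, an order that its few reads do not resolve.

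The rest of the pathway, 87 listed genes including the 10, had 65 tested, and 37 of those were called with rmCIRP in WT fibroblasts, 6 higher and 31 lower (median −0.17). That was 56.9% of the pathway genes tested, beside 43.9% of all genes. Of the 16 receptors tested, 9 fell and none rose with rmCIRP, or 56.2% beside the same 43.9%. Ror1, a receptor of Wnt5a, went from a mean of 855 ± 142 to 346 ± 41.4 normalized counts (−1.31, SE 0.12, adjusted p = 1.1e-08), and Fzd6, a Frizzled receptor, from 366 ± 14.7 to 179 ± 18.6 (−1.04, SE 0.12, adjusted p = 5.3e-07). Both genes that are needed to secrete Wnt proteins, Wls and Porcn, fell as well. Against this, the ligand Wnt11 rose from 695 ± 91.1 to 1138 ± 82.3 (0.71, SE 0.13, adjusted p = 0.0002), and Rspo3, a secreted amplifier of Wnt signaling, rose by 0.58 (SE 0.09). Of the 10 ligands tested, 2 were called higher and 3 lower, and the largest log2 fold change among them was 2.34, in a ligand other than Wnt11. The feedback inhibitor Nkd1 fell by 0.93 (SE 0.13), while Myc, a target of Wnt and many other signals, rose by 0.54 (SE 0.07).

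With rmTGF-β1, 6 of the 10 ligands tested rose and 0 fell in WT libraries (median 0.64), beside 12.4% of all genes called. In libraries labelled TLR4-/-, 8 of the 10 rose and 0 fell (median 0.83), beside 23.9% of all genes. Besides the ligands followed here, Wnt9a went from 150 ± 8.49 to 248 ± 15.7 normalized counts in WT libraries (0.72, SE 0.12, adjusted p = 0.0003) and from 163 ± 7.17 to 386 ± 64.1 in libraries labelled TLR4-/- (1.25, SE 0.11, adjusted p = 1.2e-07). Of the 7 secreted inhibitors tested, 4 fell in WT libraries and none rose, or 57.1% beside 12.4% of all genes. These ligand and inhibitor counts include the ligands and inhibitors followed here. Without the 10 genes followed here, 15 of the 55 pathway genes tested were called in WT libraries, 7 higher and 8 lower, or 27.3%. The receptors were mixed, 3 higher and 4 lower of 16, with Fzd6 up by 0.48 (SE 0.11) and Fzd4 (−0.33, SE 0.09) and Fzd5 (−0.35, SE 0.09) down. Ccn4, a matricellular target of Wnt signaling also known as Wisp1, rose by 0.62 (SE 0.07, adjusted p = 1.2e-05). Of the 17 intracellular transducers, 1 fell and none rose.

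**Figure D4:**
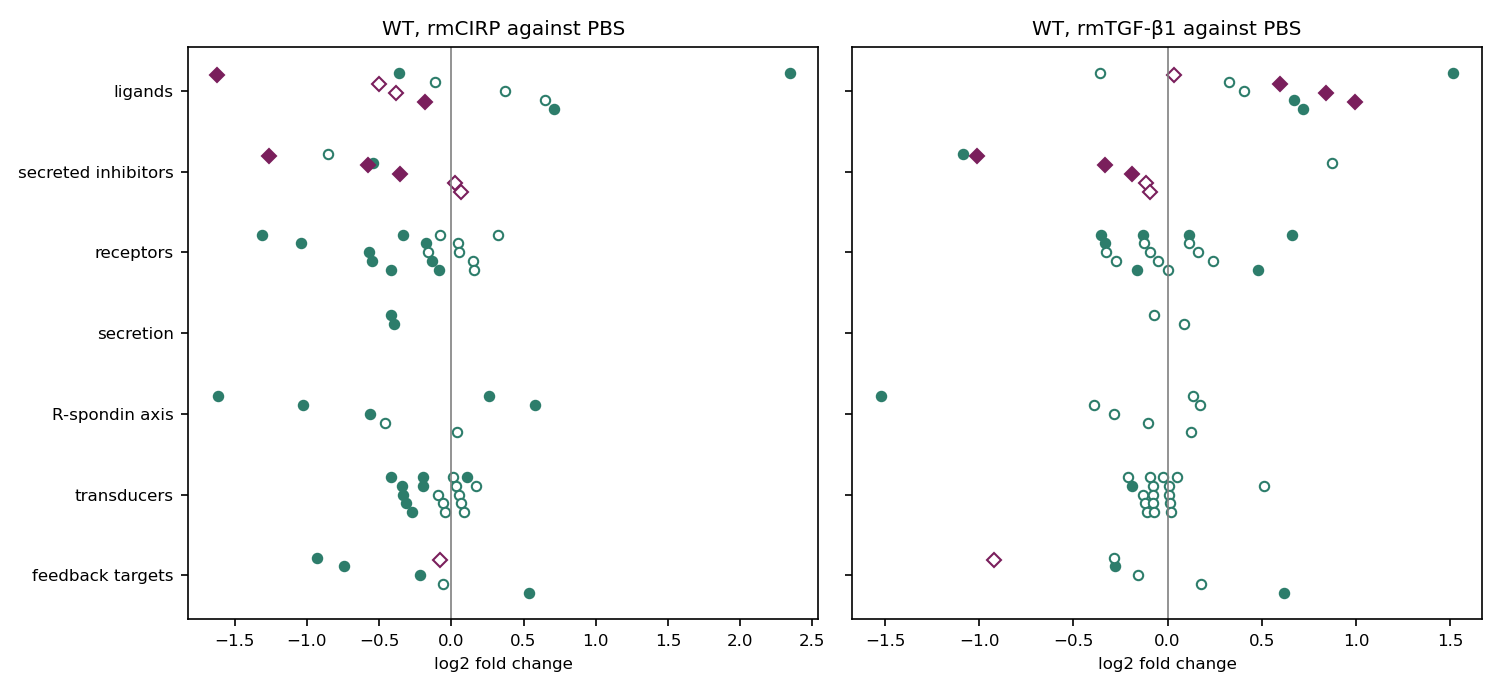
Log2 fold changes (horizontal axes) of the tested Wnt pathway genes in WT fibroblasts by role, for rmCIRP (left) and rmTGF-β1 (right) against PBS, with purple diamonds for the 10 genes followed here, green circles for the others and filled symbols for genes called at an adjusted p under 0.1. The filled receptor symbols all lie left of 0 with rmCIRP, and the filled ligand symbols all lie right of 0 with rmTGF-β1.

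The difference between genotypes in the rmCIRP response covered 29 of the 65 pathway genes, with the response higher for 25 and lower for 4 in libraries labelled TLR4-/- (median 0.18, against 0.03 over all genes). That was 44.6% of the pathway genes tested, beside 31.4% of all genes, which were higher for 2780 and lower for 2333. All 9 of the receptors called were among the 25, with Ror1 at 1.23 (SE 0.16, adjusted p = 5.8e-06) and Fzd6 at 0.97 (SE 0.16, adjusted p = 0.0001), and Wnt11 (−0.85, SE 0.20) and Rspo3 (−0.49, SE 0.13) were among the 4. No pathway gene was called in libraries labelled TLR4-/- with rmCIRP against PBS. With PBS, 8 pathway genes were higher and 29 lower in libraries labelled TLR4-/-, or 56.9% beside 47.1% of all genes (3765 higher and 3900 lower), among them the cell cycle gene Ccnd1 (1.73, SE 0.07) on the higher side and Fzd4 (−0.87, SE 0.09) on the lower side. Scaling by the fibroblast markers made 12254 of all genes higher and 564 lower, and the pathway genes were not counted under it. Markers of cell types also differed, and their part was not tested. For the response as for the PBS levels, genotype cannot be told apart from isolation or culture.

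For the 7 genes whose condition means spanned at least 1 on the log2 scale, the most similar profiles over the 8 condition means were sought among all genes tested, by the root mean square difference of centred log2 CPM. The nearest gene to Wnt10b was another ligand, Wnt9a, at 0.12, followed by 1600027J07Rik at 0.19. Wnt5a was nearest to Erfe (0.086) and Tmeff1 (0.090), Sfrp1 to Fsd1 (0.050) and Nsg1 (0.051), and Frzb to Fst (0.054), which encodes the activin inhibitor follistatin, and Lrrn3 (0.060). Wnt2 was nearest to Elmod1 (0.17) and Fgf18 (0.19), Wnt4 to Trac (0.13) and Ccn5 (0.16), and Sfrp2 to Pappa2 (0.42) and Alpl (0.50). Trac stood at 150 ± 26.2 normalized counts in WT libraries with PBS, where the lymphocyte markers Cd3e and Cd3g had 0. What its reads stem from was not tested. Elmod1 and 1600027J07Rik rested on few reads, with condition means from 5.76 to 33.7 and from 5.17 to 34.8 normalized counts. These are descriptions over 8 points that share the same 24 libraries.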

How the data were processed

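The deposited files held 1 table of raw counts per library, which the authors made from Illumina TruSeq stranded total RNA libraries (NextSeq 550) by alignment to mouse GENCODE (STAR2) and counting with HTSeq. The labels name the build NCBIM37, and the annotation release and the strand setting of the counting were not given in the sources used here. Without the strand setting, reads of a gene and of an antisense partner cannot be told apart. The tally lines of HTSeq (14.5% to 16.1% of each file) were left out of library sizes and tests.

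Genes were filtered with filterByExpr by condition (minimum count 10) and scaled by TMM. One edgeR quasi-likelihood model (glmQLFit and glmQLFTest, edgeR 4.0.16, R 4.3.3) with 8 condition means and no term for the replicate number was fitted to all 24 libraries, and 12 contrasts were tested with Benjamini-Hochberg adjustment over all genes tested. Genes were called at an adjusted p under 0.1, the threshold of the study. The SE was taken as the size of the log2 fold change over the root of F, and intervals are 1.96 SE either way. DESeq2 1.42.0 gave size factors for the levels and served as an alternative test. The biological coefficient of variation was 0.0571, and the median depth was 33585047 counted reads. CPM per kb used merged exon lengths of GENCODE release 21 for mouse, so levels between genes rest on an annotation that may differ from the one counted. The fit was tested on simulated data with known changes. Replicates of no condition agreed within sampling noise, so all 24 libraries were kept as separate samples.

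The 10 genes, the pathway list, the marker lists and the motifs were chosen with earlier results of these data known. Other pathway genes were named by rule, at most 3 with the largest rise and 3 with the largest fall per comparison among called genes that averaged 50 or more normalized counts, except Wls and Porcn, which were named after their values were seen. For likeness, the 2 nearest genes were named. Comparisons of 1 genotype that use the same PBS or single-agent libraries share those samples and are not independent. Alternatives were RLE in place of TMM, DESeq2 in place of edgeR, no filter on low counts, a mean count of at least 10, a replicate block, only the libraries compared, scaling by the fibroblast markers between genotypes, and leaving out each library.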

Additional observations from a re-analysis of the deposited data

Results flagged for a closer look

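The rmCIRP responses of 2 of the 10 genes differed between the genotypes by a test of the difference itself, 20% of them beside 31.4% of all genes tested. For Wnt4 the log2 response was 1.85 higher in libraries labelled TLR4-/- (SE 0.41, adjusted p = 0.0019, edgeR quasi-likelihood test), and it lay between 1.57 and 2.06 when 1 library at a time was left out. All 3 rmCIRP libraries of WT lay below all 3 PBS libraries, while those of the other genotype overlapped, and genes without overlap were not counted over all genes. For Dkk3 the log2 response was 0.55 higher (SE 0.09, adjusted p = 5.3e-05), between 0.48 and 0.59 when 1 library at a time was left out. Markers of cell types also differed in this test, and their part in the result was not tested. Genotype cannot be told apart from isolation or culture here.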

How the results depend on the processing

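Of the counts of called genes over the 12 comparisons, those not named here stayed within 1.5 times under every alternative run. Scaling by the fibroblast markers called 8 of the 10 genes between genotypes with PBS in place of 5, and turned Dkk2 to 0.14 and Wnt5a to 0.35. In libraries labelled TLR4-/-, both agents against rmTGF-β1 called 2 genes in place of 1 with a mean count of at least 10, 0 with only the libraries compared, 2 with the replicate block and 0 to 3 when 1 library was left out. Both agents against rmCIRP in that genotype called 3 in place of 6 with only the libraries compared. In WT libraries, both agents against rmTGF-β1 called 2 to 7 when 1 library was left out, against 6. The genotype difference in the rmCIRP response called 5 without a filter, 4 when fitted to the libraries compared alone and 2 to 4 when 1 library was left out, against 2. The genotype difference in the rmTGF-β1 response called 1 and the interaction 2 without a filter on low counts, and the interaction 1 when fitted to WT libraries alone, against 0 each. The causes were not tested. Dkk3 with rmCIRP in libraries labelled TLR4-/- lay between −0.082 and 0.017 when 1 library was left out.

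Over all genes, both agents against rmTGF-β1 in libraries labelled TLR4-/- called 437, against 900 by DESeq2, 1580 with no filter, 0 with only the libraries compared and 810 with the replicate block. With rmCIRP alone that genotype had 0, against 33 by DESeq2, 149 with no filter, 29 with only the libraries compared and 1 with the block. Both agents against rmCIRP there called 5329, against 2710 with only the libraries compared. The genotype difference in the rmTGF-β1 response called 14, against 165 by DESeq2, 563 with no filter, 23 with a mean count of at least 10 and 22 with the block. The interaction called 8, against 37 by DESeq2, 198 with no filter and 125 with only the libraries compared. Fibroblast marker scaling called 12818 genes between genotypes, 12254 higher and 564 lower, against 7665 with 3765 higher and 3900 lower.

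On average over all conditions, the replicate numbers did not pair the samples. Pairing within a genotype or between single conditions was not tested. In libraries labelled TLR4-/-, library 3 stood apart both with rmTGF-β1 and with both agents. The deviations of same-numbered libraries correlated at a mean of 0.012 (−0.12 to 0.37 over 84 pairs), and apart from the counts above the block called 5 in place of 6 genes in both agents against rmTGF-β1 in WT libraries, where Axin2 was lost. Depth limited Axin2 throughout and Sfrp2 in libraries labelled TLR4-/-.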
